A study of Mus musculus with 18 samples.

Results

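A set of 10 genes that glucocorticoid hormones are known to induce, and that are not part of the circadian clock, was followed in mice carrying the TN-XXL transgene and in wild type mice: Fkbp5, Tsc22d3, Sgk1, Klf9, Nfkbia, Zbtb16, Ddit4, Dusp1, Cebpd and Errfi1. The members were the probe sets whose only gene symbol in the probe annotation is 1 of these names. That gave 11 probe sets for 10 genes, of 35382 probe sets and 18781 single symbols in all. Klf9 had 2 probe sets, and each gene is described by the one with the highest mean over all arrays. TN-XXL is a fluorescent protein sensor of calcium, encoded by the transgene, whose calcium-binding part comes from troponin C. The groups were transgenic skeletal muscle, transgenic heart and transgenic hippocampus, each set against the same tissue of wild type littermates, with 3 arrays in each of the 6 groups and 18 arrays in all. All mice were of strain C57BL/6. The sample titles mark the transgenic arrays as +/+ and the wild type arrays as wt. The labels give no promoter of the transgene, number of lines, age or sex. They also leave unsaid whether 1 mouse gave more than 1 tissue or array, so a p-value here reflects the spread of these samples alone, and that spread may be technical. Total RNA was labelled and hybridised to Affymetrix whole-transcript arrays, and the level of a gene is a log2 value after RMA (a standard method that corrects background, normalizes arrays and summarises probes).

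Glucocorticoids (corticosterone in the mouse) bind the glucocorticoid receptor, which is held in the cytoplasm by Hsp90 and its co-chaperones, moves to the nucleus and binds response elements in which a short site is repeated in inverted order. The adrenal gland releases the hormone with a daily rhythm and on stress, and its target genes in muscle, heart and brain can follow it within a short time. The products of the 10 genes act at different points: Fkbp5 restrains the receptor itself, Nfkbia, Tsc22d3 and Dusp1 restrain inflammatory signalling, Klf9, Zbtb16 and Cebpd are transcription factors, and Sgk1, Ddit4 and Errfi1 act on kinase pathways of growth and metabolism. None of them answers to glucocorticoids alone.

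The RefSeq table (GRCm38.p6) held 16 promoter windows for 8 of the 10 genes, each from 250 bases before to 50 bases after an annotated start. Zbtb16 and Cebpd are named only. The 250 bases before the start are shown for 4 of these windows: the Sgk1 window with the full palindromic response element, the windows of Nfkbia and Klf9, which passed the genotype test in a tissue, and the window of Dusp1, which holds 2 kinds of match. Capitals mark a match to a searched motif (in Sgk1 an E-box and the response element, in Nfkbia both kappa-B matches, in Dusp1 a CRE and an E-box, and in Klf9 none). The windows are Sgk1 at chr10:21993640-21993889, plus strand, Nfkbia at chr12:55492648-55492897, minus strand, Klf9 at chr19:23140976-23141225, plus strand, and Dusp1 at chr17:26508473-26508722, minus strand.
Sgk1: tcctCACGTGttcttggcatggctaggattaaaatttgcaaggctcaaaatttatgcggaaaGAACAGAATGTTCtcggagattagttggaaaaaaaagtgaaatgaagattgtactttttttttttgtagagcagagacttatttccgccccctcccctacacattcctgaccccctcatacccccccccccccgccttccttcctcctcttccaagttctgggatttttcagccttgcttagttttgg
Nfkbia: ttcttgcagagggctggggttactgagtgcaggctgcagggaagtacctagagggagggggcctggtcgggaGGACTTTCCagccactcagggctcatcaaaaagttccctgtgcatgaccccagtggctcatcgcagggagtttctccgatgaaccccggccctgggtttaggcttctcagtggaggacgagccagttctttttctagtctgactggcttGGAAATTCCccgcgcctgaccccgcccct
Klf9: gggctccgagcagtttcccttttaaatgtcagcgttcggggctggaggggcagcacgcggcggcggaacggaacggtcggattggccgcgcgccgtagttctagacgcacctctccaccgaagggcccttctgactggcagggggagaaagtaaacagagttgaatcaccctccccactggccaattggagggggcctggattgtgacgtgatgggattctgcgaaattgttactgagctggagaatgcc
Dusp1: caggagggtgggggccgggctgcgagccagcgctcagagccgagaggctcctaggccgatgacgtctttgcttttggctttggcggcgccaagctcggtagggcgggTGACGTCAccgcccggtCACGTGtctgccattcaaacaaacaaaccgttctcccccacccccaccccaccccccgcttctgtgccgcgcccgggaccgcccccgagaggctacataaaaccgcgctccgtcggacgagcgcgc

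Motifs were searched on both strands of the 300 bases. The glucocorticoid response element GAACANNNTGTTC was in 19 of 32851 windows of the table (0.0578%) and, among the 16 windows of the 8 genes, in 1 of Sgk1, where its first base lay 188 bases before that start. Its core ACANNNTGT, which every match of the longer motif also contains, was in 6.85% of all windows and in 2 of the 16, both of Sgk1. The E-box CACGTG, which clock factors among others bind, was in 7.15% of all windows and in a window of Fkbp5, Sgk1 and Dusp1. The CRE TGACGTCA was in 1.79% of all windows and in a window of Dusp1 and Errfi1. The kappa-B letters GGANNTTCC were in 4.26% of all windows and in that of Nfkbia, with matches beginning 178 and 29 bases before the start. A match is a run of letters and not a measured binding site.

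Of the 10 genes, Nfkbia and Klf9 rose in transgenic skeletal muscle, Klf9 rose in transgenic heart, and none passed in hippocampus. Over the mean of the 3 tissues Nfkbia, Klf9 and Tsc22d3 rose. None fell in any comparison. A gene was said to pass when its Benjamini-Hochberg adjusted p over all 35382 probe sets, from a limma model of the 6 group means, was under 0.05 (two-sided). In skeletal muscle 2 of 10 genes passed with a higher level, against 3.86% of all probe sets, and 0 passed with a lower level, against 4.3%. In heart 1 of 10 passed with a higher level, against 1.57% of all probe sets, and 0 with a lower one, against 1.62%. In hippocampus limma called 0 of 35382 probe sets in either direction (0%). There 1784 of the 35382 had an unadjusted p under 0.05, about as many as that cutoff gives without any difference. Among them were 3 of the 10 genes. For the mean of the tissues 3 of 10 passed with a higher level, against 2.59% of all probe sets, and 0 with a lower one, against 3.21%.

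The transgenic mean was the higher one for 6 of the 10 genes in skeletal muscle, 9 in heart and 9 in hippocampus. The median log2 difference over the 10 genes (transgenic minus wild type) was 0.35 in skeletal muscle, 0.48 in heart and 0.32 in hippocampus, where the median over all probe sets was 0.016, 0.0031 and −0.0077. In skeletal muscle all 3 transgenic arrays lay above all 3 wild type arrays for 3 genes, against 11.6% of all probe sets, and below them for 2 genes (Sgk1 and Zbtb16), against 10.3%. In heart the transgenic arrays lay above for 4 genes, against 9.19% of all probe sets, and below for 0, against 9.35%. In hippocampus they lay above for 4 genes, against 5.95% of all probe sets, and below for 0, against 7.37%. Nfkbia and Klf9 were the genes of the list that stood apart in all 3 tissues.

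**Figure D1:**
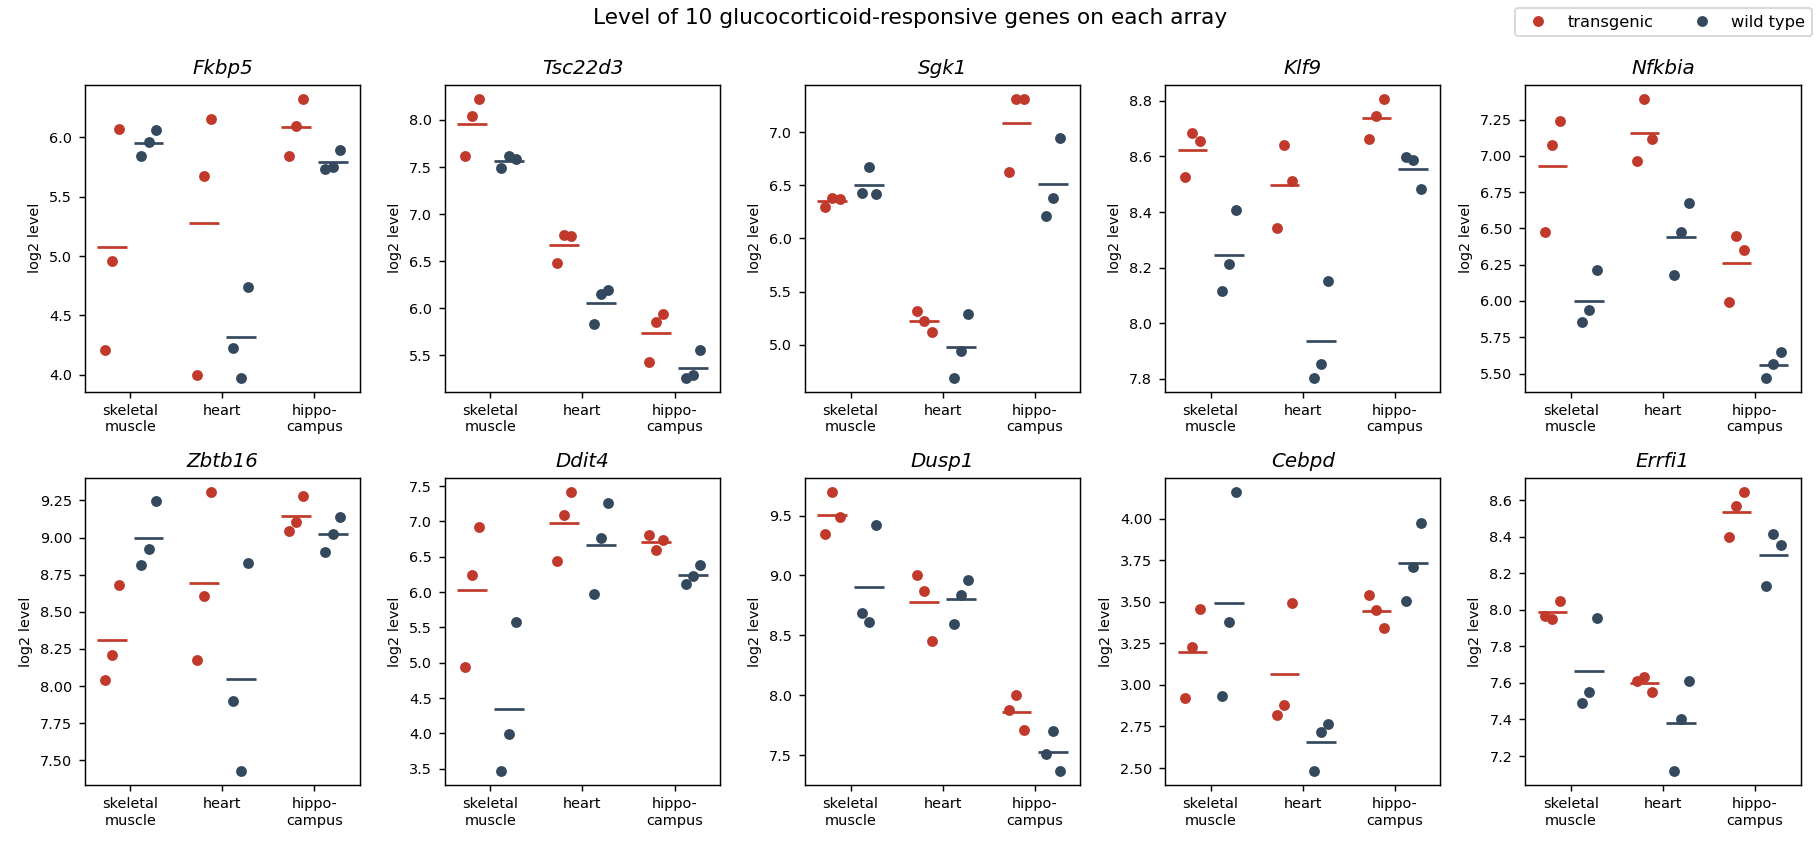
Level of each of the 10 genes (log2, a separate vertical range in each panel) on every array, by tissue, with transgenic arrays (red) left of wild type arrays (dark blue), the arrays of a group in the order of their numbers and a bar at the group mean. Nfkbia and Klf9 show no overlap between genotypes in any tissue, while Fkbp5 and Ddit4 span up to 2.15 and 2.11 log2 units within a single group.

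Nfkbia encodes the inhibitor that keeps NF-kappa-B in the cytoplasm, and it had the lowest adjusted p of the 10 genes in skeletal muscle and over the tissues. Its probe set (10400405) read 6.48, 7.07 and 7.24 in transgenic skeletal muscle, against 5.85, 5.94 and 6.21 in wild type skeletal muscle. The lowest transgenic array was above the highest wild type array. The difference was 0.93 ± 0.19 (SE), a 1.9-fold higher level (adjusted p = 0.00569, n = 3 arrays each, limma). In heart the levels were 6.96, 7.39 and 7.12 in transgenic mice, against 6.18, 6.47 and 6.68 in wild type mice, again without overlap. That difference of 0.71 ± 0.19 just missed the threshold (limma adjusted p = 0.0582). It passed in 2 of the 18 fits that left out 1 array, without transgenic skeletal muscle array 1 or 3 (adjusted p = 0.0234 and 0.0473). There the heart difference stayed at 0.71 and only its SE fell, to 0.155 and 0.179, since the arrays of all tissues share 1 estimate of the spread. In hippocampus the levels were 5.99, 6.45 and 6.35 in transgenic mice, against 5.47, 5.57 and 5.65 in wild type mice. The groups did not overlap there either, and the difference of 0.70 ± 0.19 had a limma adjusted p of 0.591 (0.00232 unadjusted). Over the 3 tissues Nfkbia rose by 0.78 ± 0.11, or 1.72-fold (adjusted p = 0.000522). With only the 6 skeletal muscle arrays in the fit, the skeletal muscle difference had an adjusted p of 0.0925.

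Tsc22d3 encodes the leucine zipper protein GILZ, which binds and inhibits NF-kappa-B and AP-1. In skeletal muscle its probe set (10606989) read 7.62, 8.04 and 8.22 in transgenic mice, against 7.49, 7.62 and 7.59 in wild type mice. The lowest transgenic array lay just above the highest wild type array. In heart it read 6.48, 6.78 and 6.77 in transgenic mice, against 5.83, 6.15 and 6.20 in wild type mice, with a clear gap between the groups. In hippocampus it read 5.43, 5.86 and 5.94 in transgenic mice, against 5.26, 5.29 and 5.56 in wild type mice, and the groups overlapped. The differences were 0.40, 0.62 and 0.37 (SE 0.17 for each), and by limma none passed alone (adjusted p = 0.19, 0.0579 and 0.985). Over the 3 tissues Tsc22d3 rose by 0.46 ± 0.10, or 1.38-fold (adjusted p = 0.00843). Its heart difference passed in 3 of the 18 fits that left out 1 array. These were without transgenic skeletal muscle array 1 or 3, or without transgenic hippocampus array 1 (adjusted p = 0.0333, 0.0477 and 0.0427). Its skeletal muscle difference passed in 1 of the 18, without transgenic skeletal muscle array 1 (0.57, adjusted p = 0.0459).

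Dusp1 encodes a phosphatase that switches off MAP kinases. In skeletal muscle its probe set (10449284) read 9.34, 9.70 and 9.49 in transgenic mice, against 8.69, 8.61 and 9.42 in wild type mice. A single wild type array, number 3, stood within the transgenic range. The difference of 0.60 ± 0.20 did not pass (limma adjusted p = 0.0807). Without that array it was 0.86 and passed (adjusted p = 0.0058), as did the mean over the tissues (adjusted p = 0.0203 without it, 0.153 with it). Both passed in only this 1 of the 18 fits that left out 1 array. In heart the levels were 9.0, 8.87 and 8.45 in transgenic mice, against 8.59, 8.84 and 8.97 in wild type mice, and the groups covered much the same range. In hippocampus all transgenic arrays (7.88, 8.0 and 7.71) were above all wild type arrays (7.52, 7.70 and 7.37), with the difference of 0.34 ± 0.20 not passing (limma adjusted p = 1). Dusp1 is also an immediate early gene, induced by growth factors and stress.

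Klf9 encodes a Krüppel-like transcription factor that thyroid hormone induces as well. Its brighter probe set (10462091) read 8.53, 8.68 and 8.66 in transgenic skeletal muscle, against 8.12, 8.21 and 8.41 in wild type skeletal muscle. In heart it read 8.34, 8.64 and 8.51 in transgenic mice, against 7.81, 7.85 and 8.15 in wild type mice. In hippocampus it read 8.66, 8.75 and 8.81 in transgenic mice, against 8.60, 8.59 and 8.48 in wild type mice. The transgenic arrays were the higher ones in every tissue, by a narrow margin in hippocampus. Klf9 rose by 0.38 ± 0.11 (1.3-fold) in skeletal muscle and by 0.56 ± 0.11 (1.48-fold) in heart (limma adjusted p = 0.0424 and 0.00992), while the hippocampus difference of 0.18 ± 0.11 did not pass (limma adjusted p = 1). Over the tissues it rose by 0.37 ± 0.06 (adjusted p = 0.00186).

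The skeletal muscle call of Klf9 is the least firm of these. It was kept in 7 of the 18 fits that left out 1 array and lost without transgenic skeletal muscle array 2 or 3, wild type skeletal muscle array 1 or 2, transgenic heart array 3, or any of the 6 hippocampus arrays, with limma adjusted p values of 0.0519 to 0.16. With only the arrays of the tissue in the fit, neither Klf9 call stood (adjusted p = 0.162 in skeletal muscle and 0.186 in heart). The second Klf9 probe set (10466680) was dim, with group means between 2.88 and 3.33, and its differences of 0.14, 0.04 and 0.04 in skeletal muscle, heart and hippocampus did not pass. Averaging both probe sets gave a mean difference of 0.22 that did not pass either (adjusted p = 0.113).

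Zbtb16 encodes the zinc finger repressor PLZF. In skeletal muscle its probe set (10593225) read 8.04, 8.21 and 8.68 in transgenic mice, against 8.82, 8.92 and 9.25 in wild type mice, so every transgenic array was the lower one. In heart it read 8.17, 8.61 and 9.31 in transgenic mice, against 7.90, 7.43 and 8.83 in wild type mice, with overlapping groups and the higher mean in transgenic mice. In hippocampus it read 9.05, 9.11 and 9.28 in transgenic mice, against 8.90, 9.02 and 9.14 in wild type mice. The differences were −0.69, 0.65 and 0.12 (SE 0.31 for each), and none passed (limma adjusted p = 0.238, 0.348 and 1). Cebpd, a C/EBP transcription factor of the acute phase response and of early fat cell differentiation, was dim on every array, at 2.48 to 4.16. Its probe set (10433885) read 2.82, 2.88 and 3.49 in transgenic heart, against 2.48, 2.72 and 2.77 in wild type heart, without overlap, while its groups overlapped in the other tissues. Its differences of −0.29, 0.41 and −0.29 did not pass (limma adjusted p = 0.625, 0.516 and 1).

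Fkbp5 encodes a co-chaperone of Hsp90 that lowers the affinity of the receptor for hormone, in a short feedback loop. In skeletal muscle its probe set (10449452) read 4.21, 4.96 and 6.07 in transgenic mice, against 5.85, 5.96 and 6.06 in wild type mice. Transgenic array 3 was at the wild type level and the other two were well under it. In heart it read 4.0, 5.67 and 6.16 in transgenic mice, against 4.23, 3.98 and 4.74 in wild type mice, so that transgenic array 1 was at the wild type level and the other two were above it. In hippocampus it read 5.85, 6.09 and 6.32 in transgenic mice, against 5.74, 5.75 and 5.89 in wild type mice. The differences of −0.88, 0.96 and 0.30 (SE 0.47 for each) did not pass (limma adjusted p = 0.344, 0.359 and 1). With 1 array left out the heart difference lay between 0.52 without transgenic heart array 3 (adjusted p = 0.743) and 1.60 without transgenic heart array 1, where alone it passed (adjusted p = 0.0412). The skeletal muscle difference lay between −1.37 and −0.44 and passed in none of these fits.

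Sgk1 encodes a kinase that raises ion transport and cell survival. In hippocampus its probe set (10362073) read 6.63, 7.31 and 7.31 in transgenic mice, against 6.21, 6.38 and 6.95 in wild type mice. The groups overlapped by 1 array each way, and the difference of 0.57 ± 0.20 did not pass (limma adjusted p = 0.859, 0.0139 unadjusted). In skeletal muscle the levels were 6.29, 6.38 and 6.38 in transgenic mice, against 6.43, 6.67 and 6.42 in wild type mice, with the transgenic arrays just below the wild type ones (difference −0.16 ± 0.20). In heart they were 5.32, 5.23 and 5.12 in transgenic mice, against 4.69, 4.94 and 5.29 in wild type mice, with overlap. Neither of these differences passed (limma adjusted p = 0.77 and 0.661).

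Ddit4 encodes REDD1, an inhibitor of the growth kinase mTOR, and it had the largest difference of the 10 genes in any tissue. In skeletal muscle its probe set (10369290) read 4.93, 6.25 and 6.92 in transgenic mice, against 3.47, 3.99 and 5.58 in wild type mice. Transgenic array 1 lay below wild type array 3, and otherwise the groups were apart. The difference of 1.69 ± 0.52 (3.22-fold) missed the threshold (limma adjusted p = 0.0616). It passed in 2 of the 18 fits that left out 1 array, without transgenic array 1 (2.24, adjusted p = 0.0137) and without wild type array 3 (2.30, adjusted p = 0.00797). The mean over the tissues (0.82 ± 0.30, adjusted p = 0.141) passed in the same 2 fits only (adjusted p = 0.0435 and 0.0293). Over all alternative fits the skeletal muscle difference lay between 1.24 and 2.30, with limma adjusted p values up to 0.308. In heart the levels were 6.44, 7.09 and 7.41 in transgenic mice, against 5.97, 6.76 and 7.27 in wild type mice, and the groups overlapped. In hippocampus they were 6.80, 6.6 and 6.73 in transgenic mice, against 6.11, 6.23 and 6.38 in wild type mice, without overlap. The difference of 0.47 ± 0.52 did not pass (limma adjusted p = 1), nor did it with the hippocampus arrays alone in the fit (0.47 ± 0.098, adjusted p = 0.638).

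Errfi1 encodes MIG6, an inhibitor of the epidermal growth factor receptor. In skeletal muscle its probe set (10510574) read 7.97, 7.95 and 8.05 in transgenic mice, against 7.49, 7.55 and 7.95 in wild type mice. In heart it read 7.61, 7.63 and 7.55 in transgenic mice, against 7.12, 7.41 and 7.61 in wild type mice. In hippocampus it read 8.40, 8.57 and 8.64 in transgenic mice, against 8.13, 8.42 and 8.36 in wild type mice. In each tissue the transgenic mean was the higher one and at least 1 wild type array lay within the transgenic range. The differences of 0.32, 0.22 and 0.24 (SE 0.13 for each) did not pass, and neither did their mean (0.26 ± 0.08, limma adjusted p = 0.0661). Of the 18 fits that left out 1 array, the skeletal muscle difference passed in 1, without wild type skeletal muscle array 3 (0.47, adjusted p = 0.0433). The mean passed in 2, without that array or without wild type heart array 3 (adjusted p = 0.0169 and 0.0313).

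**Figure D2:**
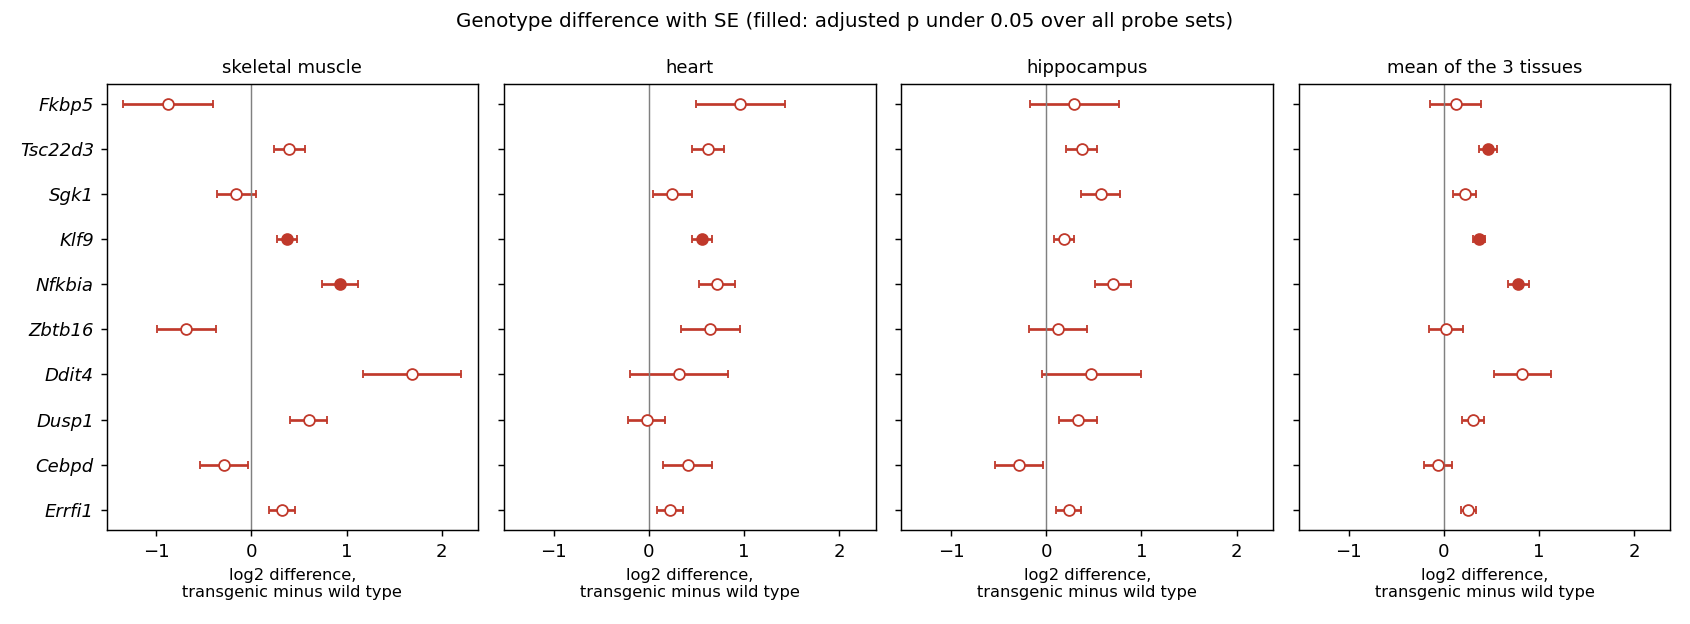
Genotype difference of each gene, transgenic minus wild type (log2), in each tissue and over their mean, with the SE of the limma fit as bars and filled points where the adjusted p over all probe sets was under 0.05. Filled points are Nfkbia and Klf9 in skeletal muscle, Klf9 in heart, and Nfkbia, Klf9 and Tsc22d3 for the mean.

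The genotype difference was compared between tissues with the interaction of genotype and tissue, which answers to its size as well as its direction. It passed for 0 of the 10 genes (limma moderated F), against 3.89% of all probe sets, and the difference between skeletal muscle and heart alone passed for 0 of 10, against 2.55%. The smallest F test p-values were those of Zbtb16 (0.0265, adjusted p = 0.229) and Fkbp5 (0.0425, adjusted p = 0.288), both with a lower transgenic mean in skeletal muscle and a higher one in heart. Their skeletal muscle minus heart values were −1.33 ± 0.44 (adjusted p = 0.147) for Zbtb16 and −1.84 ± 0.66 (adjusted p = 0.195) for Fkbp5. Each passed in only 1 of the 18 fits that left out 1 array. For Zbtb16 this was without wild type heart array 3 (−1.72, adjusted p = 0.0244) and for Fkbp5 without transgenic heart array 1 (−2.47, adjusted p = 0.0224).

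In wild type mice each gene had its own order of tissues. Array medians were 2.44 to 2.49 in skeletal muscle, 2.61 to 2.63 in heart and 3.68 to 3.71 in hippocampus, so an order that includes hippocampus is given on the deposited scale and after the median of each array was subtracted. Tsc22d3 was highest in skeletal muscle (7.56 ± 0.07, SD), then heart (6.06 ± 0.20), then hippocampus (5.37 ± 0.17), with no overlap between neighbours on either scale. Dusp1 had the same order on both scales, but skeletal muscle (8.91 ± 0.45) and heart (8.80 ± 0.19) overlapped. Nfkbia was highest in heart (6.44 ± 0.25) ahead of skeletal muscle (6.00 ± 0.19), which overlapped it, and hippocampus (5.56 ± 0.09) was apart.

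Ddit4 was high in heart (6.66 ± 0.66) and hippocampus (6.24 ± 0.14), which overlapped, and low in skeletal muscle (4.35 ± 1.10). After subtraction of the array medians Ddit4 in heart stood apart and hippocampus and skeletal muscle overlapped. Fkbp5 was at 5.96 ± 0.11 in skeletal muscle and 5.79 ± 0.09 in hippocampus, which overlapped, and at 4.32 ± 0.39 in heart, and after subtraction skeletal muscle stood apart and the other two overlapped. For Sgk1, Klf9, Zbtb16, Cebpd and Errfi1 hippocampus came first on the deposited scale and skeletal muscle came first after subtraction, so no order with hippocampus can be read for them. Of these 5 genes, skeletal muscle stood apart from heart on the deposited scale for Sgk1 (6.51 ± 0.14 and 4.98 ± 0.30) and Cebpd (3.49 ± 0.62 and 2.66 ± 0.15). After subtraction it stood apart from heart for Klf9, Zbtb16 and Errfi1 as well.

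Several of the genes varied widely between arrays of the same group, and for several the high and low arrays were those with the same number in the sample titles. This pattern was noticed in the data and is given as a description. For Fkbp5 and Zbtb16 the array numbered 3 was the highest in 6 of 6 groups, which held for 56 of 35382 probe sets (0.158%). It was the highest in at least 5 groups for 4 of the 10 genes, with Ddit4 and Cebpd added, against 1.85% of probe sets, and in at least 4 groups for 7 of 10, against 9.93%. The array numbered 1 was the lowest in 6 of 6 groups for Tsc22d3 and Nfkbia (0.133% of probe sets), and in at least 5 groups for 7 of the 10 genes (1.79%). Dusp1 did not share the pattern, with array 3 highest in 2 groups and array 1 lowest in 2. The SD within groups was 0.70 for Ddit4 and 0.63 for Fkbp5, larger than for 98.8% and 97.6% of probe sets, and 0.13 for Klf9, larger than for 27.3%. The labels do not say what the numbers mark.

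**Figure D3:**
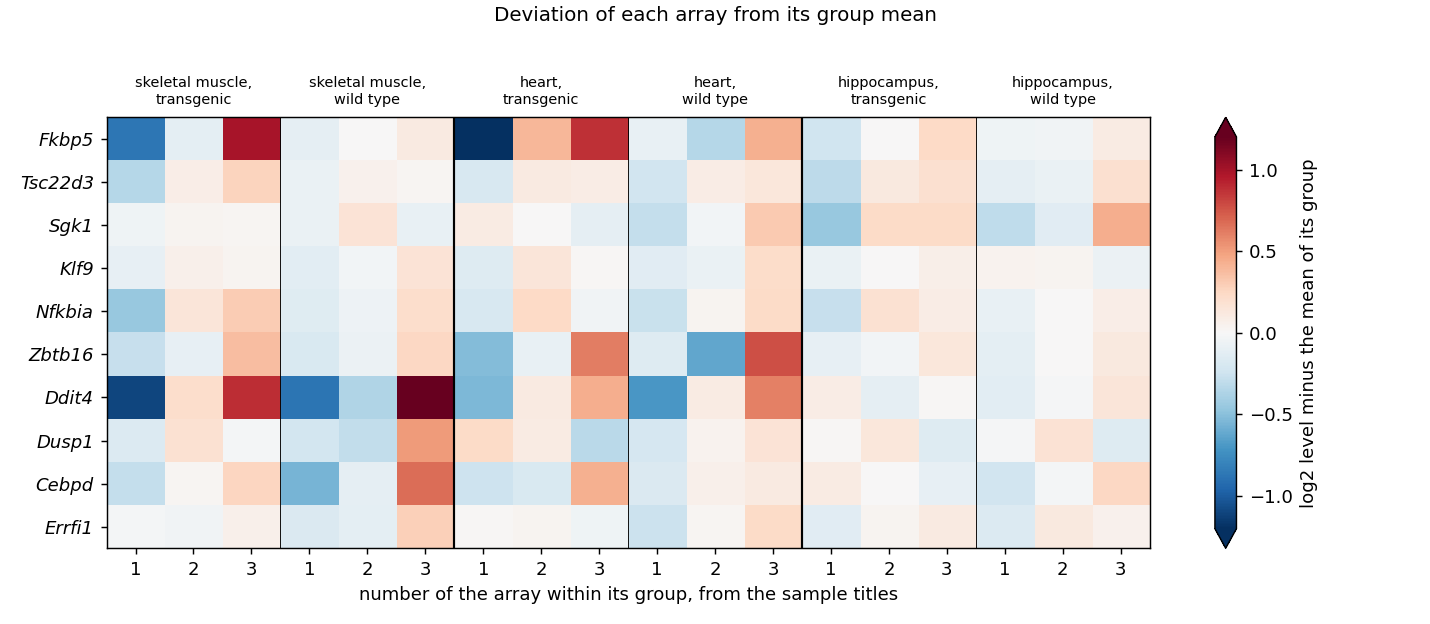
Deviation of each array from the mean of its group (log2, blue below and red above, colours end at 1.2 either way) for the 10 genes, with transgenic left of wild type arrays in each tissue and arrays numbered as in the sample titles. Within each of the 6 groups array 3 is the highest for Fkbp5 and Zbtb16, and Ddit4 shows the widest range in both skeletal muscle groups.

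The same count was made for 39 other measured genes known as glucocorticoid targets, a list drawn up from textbook knowledge with earlier results of these arrays known. Array 3 was the highest in at least 5 groups for 13 of the 39, and in all 6 for 7 of them: the metallothioneins Mt1 and Mt2, the transcription factor Foxo3, the lipid droplet gene Plin4, the arrestin-domain gene Arrdc2, Fam107a and the tyrosine aminotransferase gene Tat. Tat lay under the array median in every tissue. Of 22 immediate early genes, which answer to activity and growth factors within minutes, 0 reached 5 groups, and of 14 clock genes 1 did. Over all probe sets the share was 1.85%. The lists of immediate early and clock genes are too short to show a difference from it, and the 39 targets were not tested against it.

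**Figure D4:**
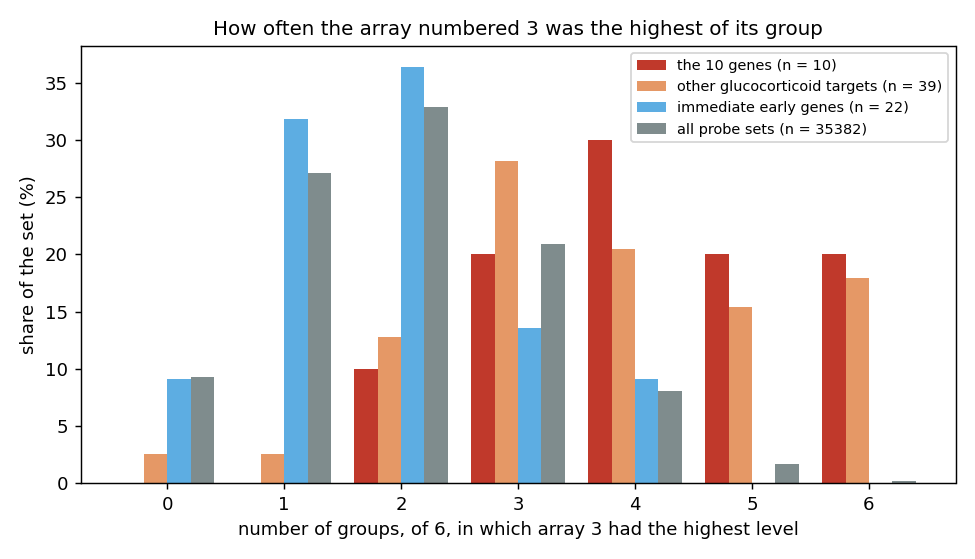
Share of each set of genes (percent, bars from 0) by the number of groups, of 6, in which the array numbered 3 had the highest level, for the 10 genes, 39 other glucocorticoid targets, 22 immediate early genes and all 35382 probe sets. The 10 genes and the other targets reach 5 and 6 groups, where 1.85% of all probe sets lie, and the immediate early genes end at 4.

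The receptor and its partners were measured by 16 genes of a list of 20. Counts of this and the following lists stand beside the shares of all probe sets. In skeletal muscle 3.86% rose and 4.3% fell, in heart 1.57% and 1.62%, and for the mean 2.59% and 3.21%. The glucocorticoid receptor gene Nr3c1 was at 5.95 ± 0.10 in transgenic and 6.01 ± 0.11 in wild type skeletal muscle, at 6.14 ± 0.23 and 6.17 ± 0.15 in transgenic and wild type heart, and at 6.12 ± 0.10 and 6.16 ± 0.12 in transgenic and wild type hippocampus (SD, n = 3 each), and passed in no tissue (limma adjusted p = 0.857, 0.947 and 1). In skeletal muscle 4 of the 16 fell and 0 rose, all 4 of them chaperones of the receptor complex: Stip1 by 0.42, Ptges3 by 0.39, Hsp90aa1 by 0.36 and Hspa8 by 0.27 (limma adjusted p = 0.00672, 0.0171, 0.0283 and 0.0268). In heart 1 of 16 fell, H6pd, whose enzyme supplies the cofactor with which corticosterone is regenerated in cells (fell by 0.63, limma adjusted p = 0.0282). Over the tissues 3 fell (H6pd, Stip1 and the coactivator gene Ncoa1) and 0 rose. These chaperones also serve many proteins other than the receptor.

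Of the 39 other targets, 6 rose and 5 fell in skeletal muscle, and 4 rose and 1 fell in heart. Mt2 was at 9.90 ± 0.11 in transgenic and 6.86 ± 0.39 in wild type skeletal muscle, and Mt1 rose too, by 1.22. The decoy receptor gene Il1r2 rose by 0.72 (2.81 ± 0.18 in transgenic and 2.09 ± 0.17 in wild type skeletal muscle). It was dim, and its mean over both genotypes lay under the array median. Among those that fell in skeletal muscle were the ubiquitin ligase gene Fbxo32, which drives muscle atrophy (fell by 1.15), and the repressor gene Bcl6 (fell by 1.46). In heart Arrdc2 (2.21 ± 0.49), the kinase gene Map3k6 (1.02 ± 0.23) and Mt2 (1.42 ± 0.32) rose, and the lipin gene Lpin1 fell by 0.33 ± 0.08. Per1, a clock gene with a known glucocorticoid response element, rose in both (2.11 in skeletal muscle and 2.07 in heart). The median difference of the 39 was 0.12 in skeletal muscle, 0.065 in heart and 0.073 in hippocampus, smaller than that of the 10 genes in each tissue, and both directions occurred.

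Genes related by sequence to the 10 were set beside them, 27 in all. In skeletal muscle 1 rose and 5 fell, and in heart 3 rose and 0 fell. The Ddit4 relative Ddit4l was at 8.06 ± 0.27 in transgenic and 9.87 ± 0.29 in wild type skeletal muscle (difference −1.81 ± 0.26, limma adjusted p = 0.000336), and at 5.21 ± 0.39 in transgenic and 3.27 ± 0.52 in wild type heart (difference 1.94 ± 0.26, limma adjusted p = 0.000723). The Tsc22d3 relative Tsc22d4 rose in skeletal muscle (1.16 ± 0.10) and heart (0.41 ± 0.10), and Tsc22d1 rose in heart (0.37 ± 0.08). The MAP kinase phosphatase genes Dusp8, Dusp10 and Dusp16 and the Klf9 relative Klf10 fell in skeletal muscle, by 0.72, 0.51, 0.35 and 0.57. Each gene here passed at a limma adjusted p under the threshold over all probe sets.

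Nfkbia is itself a target of NF-kappa-B, so 19 measured genes of that pathway were examined. In skeletal muscle 3 rose and 0 fell: Nfkb2, which encodes a subunit of the factor, by 1.16 ± 0.12 (limma adjusted p = 2.3e-05), the inhibitor gene Tnfaip3 by 0.81 ± 0.16 (adjusted p = 0.00352), and the subunit gene Relb by 0.57 ± 0.15 (adjusted p = 0.0266). In heart and hippocampus 0 of the 19 passed in limma, and in hippocampus no probe set of any gene did. Of the 19, 9 lay under the array median in skeletal muscle, 7 in heart and 14 in hippocampus. The cytokine genes Il6, Tnf and Il1b were among them in all 3 tissues. Relb was dim in skeletal muscle, with means of 3.01 in transgenic and 2.44 in wild type mice. Of the 22 immediate early genes, among which Dusp1 is not counted, 5 rose and 2 fell in skeletal muscle (Egr1 1.03, Junb 0.50 and Klf4 0.47 up, Myc and Ccn1 down), and 3 rose and 1 fell in heart (Nr4a1 1.33, Arc 1.02 and Zfp36 0.83 up, Ccn1 down). Of these, Arc was dim in wild type heart (mean 2.469, under the array medians of heart). Junb was dim in wild type skeletal muscle (mean 2.595, just above the array medians there). Of 14 measured clock genes, 7 rose and 5 fell in skeletal muscle, 9 rose and 4 fell in heart, and 0 passed in hippocampus.

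Tissue labels were borne out by the markers: the mean over 8 skeletal muscle genes was 11.39 to 11.42 on transgenic and 11.32 to 11.44 on wild type skeletal muscle arrays, the mean over 7 cardiomyocyte genes 10.34 to 10.85 on transgenic and 10.19 to 10.59 on wild type heart arrays, and the mean over 8 neuron genes 10.51 to 10.56 on transgenic and 10.45 to 10.53 on wild type hippocampus arrays. Endothelial markers moved with genotype in skeletal muscle and heart. In hippocampus their mean over 8 genes was 5.44 to 5.68 on transgenic and 5.65 to 5.78 on wild type arrays, with overlap, and 0 of 8 passed. That mean was 5.79 to 6.22 on transgenic and 6.46 to 6.56 on wild type skeletal muscle arrays, where 4 of 8 fell. On heart arrays it was 7.0 to 7.30 in transgenic and 7.53 to 7.59 in wild type mice, where 2 of 8 fell. None was under the array median in skeletal muscle or heart. Adipocyte markers moved in skeletal muscle, at 5.70 to 6.01 on transgenic and 4.90 to 5.44 on wild type arrays for the mean over 7 genes, of which 2 rose (Pparg and Adipoq) and none was under the array median. Their part in the results was not tested, and in bulk tissue fewer cells of a type and less RNA per cell cannot be told apart.

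Genes with the most similar pattern were found for the 4 members with the smallest genotype p-values, by Pearson's r over the 18 arrays after each tissue mean was subtracted, with arrays of both genotypes entering together. Klf9 was most like Tob2 (r = 0.957), Tspan4 and Per1 (r = 0.932 for each). Nfkbia was most like Ik and Sec14l1 (r = 0.893 for each) and Ephx1 (r = 0.89). Tsc22d3 was most like Usp54 (r = 0.902), Map3k6 (r = 0.888) and Dclre1b (r = 0.871). Ddit4 was most like E230001N04Rik (r = 0.904), Pmp2 (r = 0.883) and Slc10a6 (r = 0.845). These values describe the arrays, were picked as the highest of all single-symbol genes and have no test.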

How the data were processed

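The authors deposited 1 table of log2 values, and RMA and R 2.10.0 are named in the submitters' processing notes. Neither the chip definition nor joint normalization of all tissues is stated there. Of 35382 probe sets, 21153 had 1 gene symbol in the platform annotation, 1867 several and 12362 none, and genes were named from the first kind. Values were used as deposited. A limma model (limma 3.58.1, R 4.3.3) gave each of the 6 groups a mean, with 12 residual degrees of freedom and 2.67 from the prior. The arrays of all tissues shared 1 estimate of the spread of a probe set, so the SE and p-value in 1 tissue also reflect the spread in the others. Contrasts were transgenic minus wild type in each tissue, their mean, and the interaction. Adjustment was by Benjamini-Hochberg over all probe sets, two-sided, at a threshold of 0.05. The procedure was tested on simulated data. Groups came from the sample labels, and 3 arrays in each limit the precision. The 10 genes, the gene lists and the tests were chosen with earlier results of these data known. All 10 genes were named. From each list described, up to 6 genes with the smallest unadjusted p in a comparison were eligible for naming, while Nr3c1, Il6, Tnf, Il1b and the genes of the array-number description were chosen after their values were seen. For likeness the 3 genes with the highest r were named. Promoter windows are RefSeq's, searched in Python 3.11.15. Figures were drawn with matplotlib 3.10.9. Alternatives changed the arrays in the fit, blocks, filters, scaling, the prior, weights, the threshold and the probe set of a gene, and left out each array in turn.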

Additional observations from a re-analysis of the deposited data

How the results depend on the processing

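The count of the 10 genes that passed moved with the processing. Against 2 in skeletal muscle and 1 in heart, it was 0 and 0 when each tissue was fitted alone, 1 and 0 when the probe sets of a gene were averaged, 4 and 3 with only probe sets with 1 symbol, and 4 and 3 at a threshold of 0.10. Without dim probe sets it was 3 in skeletal muscle (with Ddit4, adjusted p = 0.0411), 3 in heart and 4 for the mean, with an intensity trend and robust prior 2 in skeletal muscle, 2 in heart and 4 for the mean (Errfi1 joined the mean in both, adjusted p = 0.0401 and 0.0448), with arrays centred on their medians 1 in skeletal muscle, and at a threshold of 0.01 it was 1 in skeletal muscle. Fewer arrays or fewer probe sets entered some of these fits, and the cause of each change was otherwise not tested. The share of all probe sets that passed was not counted for the alternatives, here or below. A change in count can therefore not be read as particular to the 10 genes. Over all probe sets, arrays that share a number did not deviate together: correlations of their deviations were −0.031 to 0.04 between genotypes and −0.054 to 0.047 between tissues, none over 0.1, so the number was not taken as a pairing. Several of the 10 genes did follow it in these same values, so added calls in a fit that uses the number are no separate support. With that number as a replicate block, 4 passed in skeletal muscle, 3 in heart, 5 for the mean, 0 in hippocampus and 0 for the interaction F test, while the skeletal muscle minus heart difference of Zbtb16 passed (−1.33 ± 0.29, adjusted p = 0.0326). In that fit the number itself passed for 0 of 35382 probe sets (limma F, 1707 at an unadjusted p under 0.05, or 4.82%, with 7 of the 10 genes among them, lowest adjusted p 0.658). As a random block it gave a consensus correlation of −0.0033 and the same counts as without it.

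Leaving out each array in turn gave 1 to 5 genes in skeletal muscle (5 without wild type skeletal muscle array 3), 1 to 3 in heart, 3 to 6 for the mean (6 without that same array) and 0 to 1 for the interaction (1 without transgenic heart array 1 or wild type heart array 3). The mean calls of Nfkbia, Klf9 and Tsc22d3 and the calls of Nfkbia in skeletal muscle and Klf9 in heart were kept in all 18 such fits. Signs turned only among differences that never passed: Fkbp5 mean (−0.039 to 0.339), Zbtb16 mean (−0.076 to 0.157), Cebpd in skeletal muscle (−0.569 to 0.044) and mean (−0.149 to 0.055), Dusp1 in heart (−0.137 to 0.138), Ddit4 in heart (−0.033 to 0.617), and Errfi1 in skeletal muscle minus heart (−0.012 to 0.248). The number of arrays limits what can be told, and Cebpd and the second Klf9 probe set lay close to the array medians.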
